A study of Mus musculus with 24 samples.

Results

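The VLDL and LDL receptor family genes were followed in hematopoietic stem cells (HSCs) of young and old mice. The family was taken as a list of 8 genes (*Vldlr*, *Lrp1*, *Lrp4*, *Lrp5*, *Lrp6*, *Lrp8*, *Lrp10* and *Lrp12*), matched by gene symbol to the 18762 genes of the deposited table. Rows were found for 6 of the 8, and *Lrp10* and *Lrp12* were not analysed here. The list was chosen by the measured difference of *Vldlr* between young and old mice, so the age differences of its members are given below as a description, with no test. The cells were LSK-SLAM cells, that is Lin-, Sca-1+, c-Kit+, CD48- and CD150+ bone marrow cells, a gate enriched for HSCs, sorted from wild-type C57BL/6 mice. The labels put 5 young mice at 4 to 5 months and 7 old mice at 20 to 22 months, and name no transgene or treatment for any mouse. The study's text gives other ages for its young and old mice. Each of the 12 mice has 2 labelled samples and 1 deposited column, so a mouse was counted once. RNA came from 15000 sorted cells per mouse, so a change in the share of a cell type and a change in RNA per cell cannot be told apart.

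Members of this family are cell surface receptors that carry LDL-type repeats outside the cell and take up lipoproteins, proteases and other ligands by endocytosis. *Vldlr* encodes the very low density lipoprotein receptor, which binds triglyceride-rich particles carrying apolipoprotein E and, together with LRP8 (apolipoprotein E receptor), also receives reelin and signals through the adaptor DAB1. *Lrp1* encodes a large scavenger receptor for many ligands, *Lrp5* and *Lrp6* encode the Wnt co-receptors that act beside Frizzled proteins, and *Lrp4* encodes the agrin receptor that works with MuSK and also binds the Wnt antagonist sclerostin.

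In the mouse genome build GRCm38 (mm10), *Vldlr* (ENSMUSG00000024924) lies on chromosome 19 from 27216484 to 27254231 on the plus strand, with 10.068 kb of annotated exons. *Lrp5* lies on the minus strand of the same chromosome, from 3584828 to 3686564. *Lrp8* is on chromosome 4 (107802261 to 107876840, plus strand), *Lrp1* on chromosome 10 (127538161 to 127621148, minus strand), *Lrp6* on chromosome 6 (134446476 to 134566965, minus strand) and *Lrp4* on chromosome 2 (91457511 to 91513779, plus strand). All 6 are protein-coding genes. Between 0% and 0.758% of the 50-base words of a member's transcripts occur in another gene's transcripts. The antisense genes *Lrp8os1* and *Lrp8os2* overlap *Lrp8*, and *Gm16217* overlaps *Lrp1*. The sources used here do not state that reads were counted by strand, so reads of these pairs cannot be told apart.

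The sequences shown are the 250 bases upstream of an annotated start of *Vldlr*, the member that differed most between ages, and of *Lrp1*, the member that differed most between the label letters described below. Both are from RefSeq on GRCm38.p6, on the strand of the gene and 5′ to 3′. Capitals mark the GC box (GGGCGG, searched on both strands, with which no other motif searched overlapped here). The *Vldlr* window is chr19:27216770-27217019 on the plus strand and overlaps an exon of a non-coding transcript of the same gene that starts further upstream, and the *Lrp1* window is chr10:127621149-127621398 on the minus strand.
Vldlr: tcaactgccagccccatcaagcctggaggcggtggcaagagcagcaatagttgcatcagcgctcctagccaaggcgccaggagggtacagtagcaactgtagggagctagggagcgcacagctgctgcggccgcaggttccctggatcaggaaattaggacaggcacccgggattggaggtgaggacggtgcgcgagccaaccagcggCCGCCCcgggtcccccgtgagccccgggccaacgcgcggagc
Lrp1: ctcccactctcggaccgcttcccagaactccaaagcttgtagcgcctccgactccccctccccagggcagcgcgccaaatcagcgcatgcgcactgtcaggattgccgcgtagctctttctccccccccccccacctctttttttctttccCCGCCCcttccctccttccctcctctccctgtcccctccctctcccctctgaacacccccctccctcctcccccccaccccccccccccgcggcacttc

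Both windows were GC-rich, with 66.4% G or C for *Vldlr* and 67.2% for *Lrp1*, against a median of 52.4% over 32851 windows of the same length. Each held 1 GC box, which 32.7% of all windows hold. The *Vldlr* window also held 1 CCAAT box (CCAAT, in 33.8% of windows), which the *Lrp1* window did not. Neither window held the letters of a TATA box (TATAAA, in 12.4% of windows), of the hypoxia response core (ACGTG, in 16.6%), of the RUNX core (TGTGGT, in 14.0%) or of the sterol response core (CACCCCAC, in 2.58%), all searched on both strands. These are matches of letters and not measured binding sites.

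The 12 mice had between 0.861 and 5.12 M reads in the table, where M stands for 1000000 (medians of 3.48 M in young and 2.22 M in old mice). The mouse labels end in a letter, A or B, whose meaning is not given in the sources used here. The 2 young and 4 old mice with letter A had 0.861 to 3.11 M reads and the 3 young and 3 old mice with letter B had 3.23 to 5.12 M reads. The files hold normalized read counts, and 3 reads are worth 0.583 to 3.69 of them, depending on the mouse. A single gene, *Gm10800*, took 7.18% to 18.6% of the reads in letter A mice and 1.6% to 8.44% in letter B mice, the highest share in old mouse 7. All 7 HSC marker genes (among them *Kit*, *Mecom*, *Hlf* and *Procr*) had reads in all 12 mice, with a summed level of 2471 to 4159 in young and 1263 to 4436 in old mice. The lowest sums, 1263 and 1910, were those of old mice 5 and 7, which also had the fewest reads. As a further measure of library quality, chosen after the data were seen, the level of 1195 olfactory and vomeronasal receptor genes was taken. These genes encode receptors of sensory neurons and are not known as blood cell genes. Their level per kilobase of exon was 2.32 to 5.16 in the letter A mice and 0.517 to 2.10 in the letter B mice, with no overlap, and 0.943 to 3.26 in young and 0.517 to 5.16 in old mice.

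All 6 members were detected in all 12 mice, from 29 reads (*Lrp8*, in its lowest mouse) to 1429 reads (*Lrp6*, in its highest). To compare genes with each other, the normalized count was divided by the kilobases of exon. In young mice *Lrp6* had the highest level, 17.1 ± 3.56 normalized counts per kb (SD, n = 5). It was followed by *Lrp5* with 9.26 ± 0.992, *Vldlr* with 8.03 ± 0.777, *Lrp8* with 5.12 ± 0.400, *Lrp4* with 4.90 ± 2.52 and *Lrp1* with 4.50 ± 2.33 normalized counts per kb. The ranges of *Lrp6* and *Lrp5* did not overlap, nor did those of *Vldlr* (7.29 to 9.02) and *Lrp8* (4.80 to 5.76), whereas *Lrp5* and *Vldlr*, and the 3 lowest genes, overlapped with their neighbours.

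In old mice *Vldlr* stood first in this order, with 23.3 ± 8.23 normalized counts per kb (SD, n = 7), ahead of *Lrp6* with 17.7 ± 2.27 and *Lrp5* with 10.7 ± 1.92. *Lrp1* with 4.50 ± 2.73, *Lrp8* with 4.41 ± 0.652 and *Lrp4* with 3.86 ± 1.76 followed. The old range of *Vldlr* (10.2 to 35.5) covered that of *Lrp6* (14.0 to 20.4). Within the same mouse *Vldlr* was below *Lrp6* in old mice 5 and 6 and above it in the other old mice. *Lrp6* and *Lrp5* (8.59 to 13.2) did not overlap, and the other neighbours overlapped. Dividing by the longest transcript instead of all exons kept the order in young mice and exchanged only *Lrp1* and *Lrp8* in old mice.

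Set against the level per kb of the olfactory and vomeronasal receptor genes in the same mouse, the members fell into different ranges. *Lrp6* was at 2.71 to 36.9 times that level (median 7.47 over 12 mice), *Vldlr* at 1.98 to 49.6 times (median 6.88) and *Lrp5* at 1.67 to 21.4 times (median 4.53). *Lrp1* stayed between 1.20 and 2.91 times (median 2.07) in every mouse, a narrow range. *Lrp4* was at 0.860 to 3.48 times (median 2.28) and *Lrp8* at 0.717 to 7.59 times (median 2.22). Among relatives of the list, *Lrp2* (megalin, best known from kidney) was at 1.53 to 3.33 times and *Lrp1b* at 0.902 to 1.84 times. Levels below that of the receptor genes were seen for *Lrp8* in 2 old mice, for *Lrp4* in 1 old mouse and for the relative *Lrp1b* in young mice 2 and 4. With the longest transcript as the length of the member, the lowest levels of *Lrp8* and *Lrp4* were each 1.14 times that of the receptor genes.

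**Figure D1:**
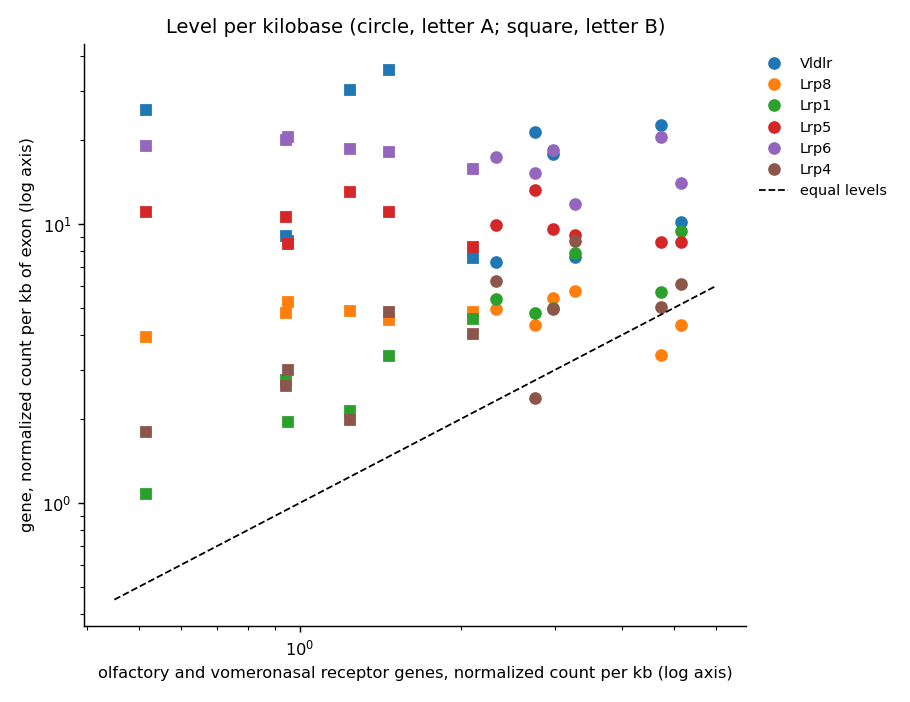
Normalized count per kb of exon of the 6 members (vertical, log axis) against the level per kb of 1195 olfactory and vomeronasal receptor genes in the same mouse (horizontal, log axis). Each point is a gene in 1 of 12 mice, circles are letter A and squares letter B, and the dashed line marks equal levels, above which *Lrp1*, *Lrp8* and *Lrp4* lie at medians of 2.07, 2.22 and 2.28 times.

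To ask how the members differ with age, the 7 old mice were set against the 5 young mice. *Vldlr*, the lipoprotein and reelin receptor, was higher in old mice, while the values of the other 5 members overlapped between the ages. In young mice 1 to 5 its normalized read count was 73.4, 76.4, 90.8, 87.5 and 75.8. In the old mice with letter A (mice 1, 5, 6 and 7) it was 215, 103, 179 and 228, and in those with letter B (mice 2, 3 and 4) it was 303, 357 and 258. Every old mouse was above every young mouse, and the lowest old value, 103 in old mouse 5, stood 1.13-fold above the highest young one. The old mice spread more widely than the young ones, with 235 ± 82.9 (SD, n = 7) against 80.8 ± 7.82 (SD, n = 5), a ratio of means of 2.91. Group means are given ± SD, over 5 young and 7 old mice, here and below. On the log2(value + 1) scale the difference was 1.44 ± 0.24 (SE), which ranked 14 of 12354 genes when ordered from the most raised in old mice.

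The rise of *Vldlr* appeared within each letter. Among letter A mice the mean was 74.9 ± 2.14 for the 2 young and 181 ± 56.2 for the 4 old mice, and among letter B mice it was 84.7 ± 7.91 for the 3 young and 306 ± 49.5 for the 3 old mice. The corresponding log2 differences were 1.20 ± 0.36 (SE) and 1.83 ± 0.18 (SE), and with the letter as a term the difference was 1.53 ± 0.20 (SE). Leaving out each mouse in turn gave 1.33 to 1.62. Whether the difference itself varied with the letter was tested by an interaction term in limma. For *Vldlr* the interaction was 0.63 ± 0.39 (SE; adjusted p = 0.9998), and of the 6 members 0 passed, against 2 of all 12354 genes (0.0162%). A total of 424 genes were at an unadjusted p under 0.05 there, so the larger difference in letter B mice was not shown to differ from that in letter A mice.

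**Figure D2:**
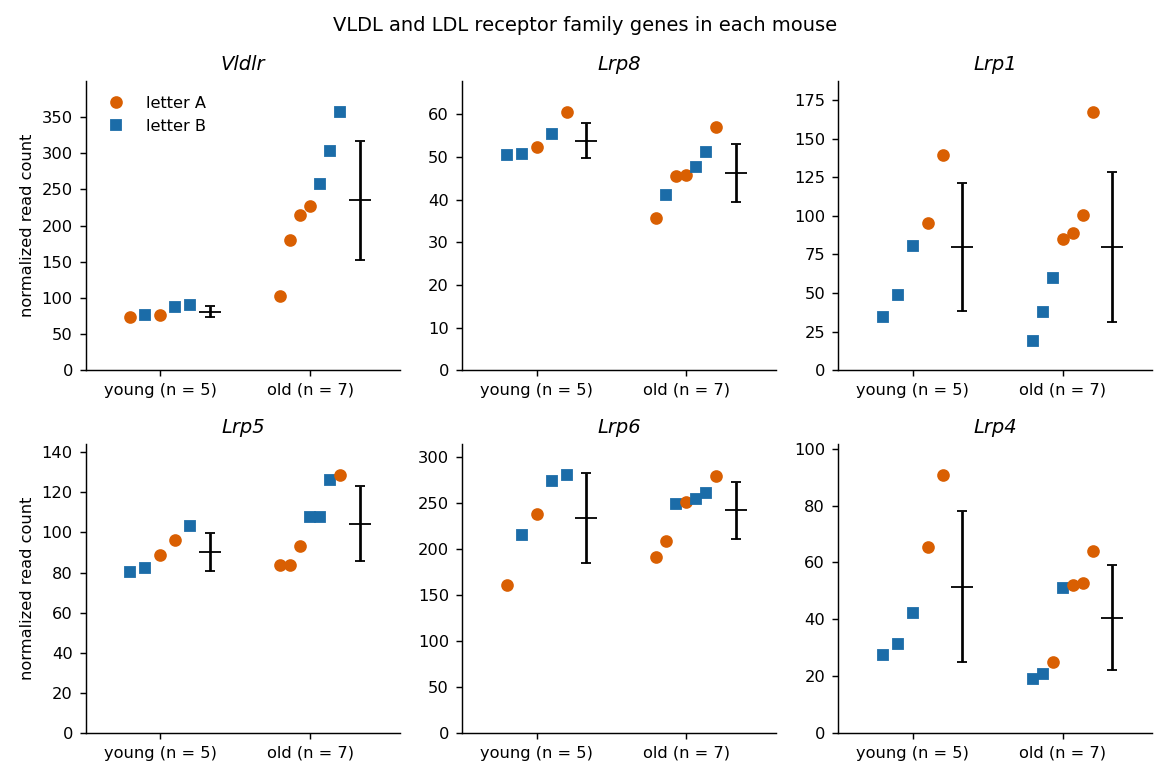
Normalized read count (vertical, linear from 0) of each member in 5 young and 7 old mice, circles for letter A and squares for letter B, with the mean and SD in black. The 7 old values of *Vldlr* lie between 103 and 357, all above the 5 young values of 73.4 to 90.8, and the other members overlap between ages.

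*Lrp8*, the other receptor for reelin, had a young mean of 53.9 ± 4.21 normalized counts and an old mean of 46.3 ± 6.85. Its young values of 52.3, 60.6, 50.4, 55.3 and 50.8 overlapped with the old range of 35.7 to 57.1 (median 45.8), and the log2 difference was −0.22 ± 0.18 (SE). *Lrp8* was the least variable member, with a coefficient of variation of 13.9% over the 12 mice against 58.8% for *Vldlr*. The old to young ratio was 0.860 for *Lrp8*, beside 2.91 for *Vldlr*. After the background subtraction described below, which set negative results to 0, the log2 difference of *Lrp8* was −1.59. In old mice 5 and 7 its level per kb was 0.844 and 0.717 times that of the olfactory and vomeronasal receptor genes. Its values in these mice were therefore set to 0. With the longest transcript as its length, its lowest level was 1.14 times, so setting these values to 0 depends on the length used.

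Among the Wnt co-receptors, *Lrp5* had 96.4, 88.9, 103, 82.2 and 80.2 normalized counts in young mice 1 to 5, and a range of 83.6 to 129 (median 108) in old mice. The ages overlapped and the log2 difference was 0.20 ± 0.17 (SE). Within letter B the mean was 88.5 ± 12.7 (SD) in the 3 young mice and 114 ± 10.7 (SD) in the 3 old mice. The log2 difference was 0.36 ± 0.20 (SE) there and 0.05 ± 0.33 (SE) in letter A. The interaction of *Lrp5*, 0.32 ± 0.36 (SE), did not pass (limma, adjusted p = 0.9998). *Lrp6*, the member with the highest level per kb in young mice, had a young mean of 233 ± 48.7 and an old mean of 242 ± 31.0. Its log2 difference of 0.07 ± 0.18 (SE) was smaller than its standard error, and it turned to −0.06 without young mouse 2, whose value of 161 was the lowest of all 12.

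The scavenger receptor *Lrp1* had nearly equal means in both ages, 79.8 ± 41.3 and 79.8 ± 48.4. Its log2 difference was −0.10 ± 0.43 (SE). Over the 12 fits that leave out 1 mouse it lay between −0.36 and 0.19, so its direction was not stable in the fit for age alone. With the letter as a term it was −0.34 ± 0.26 (SE). In letter A alone it was −0.12 ± 0.35 (SE) and in letter B alone −0.54 ± 0.34 (SE). After the background subtraction it was −0.60. The agrin receptor *Lrp4* had a young mean of 51.5 ± 26.5 and an old mean of 40.6 ± 18.5. Its log2 difference was −0.34 ± 0.36 (SE), or −1.71 after that subtraction, where its value in old mouse 1 was set to 0. With the letter as a term, and no subtraction, it was −0.49 ± 0.27 (SE). Within letter A its values were 65.3 and 90.9 in the 2 young mice and 24.9 to 63.9 in the 4 old mice. The log2 difference of *Lrp4* was −0.74 ± 0.39 (SE) there and −0.28 ± 0.36 (SE) in letter B. Its interaction of 0.46 ± 0.54 (SE) did not pass (limma, adjusted p = 0.9998).

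By the threshold used across all genes (limma, Benjamini-Hochberg adjusted p under 0.05), 1 of the 6 members, *Vldlr*, was among the 13 genes called between ages, which is 0.105% of the 12354 genes tested. Of these, 12 were higher and 1 was lower in old mice, and 488 genes were at an unadjusted p under 0.05. *Vldlr* was no longer among the called genes without young mouse 1, 3, 4 or 5, without old mouse 1, 2 or 3, in the letter A mice alone, in replicates 1 to 5 of each age, without the variance trend, under median ratio scaling or after the background subtraction described below. The members were chosen with this comparison known, and nothing is read from the count. Values without overlap between young and old mice were found for 1 of the 6 members and for 57 of all genes tested (0.461%). The median log2 difference of the members was −0.02, as was that of all genes.

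**Figure D3:**
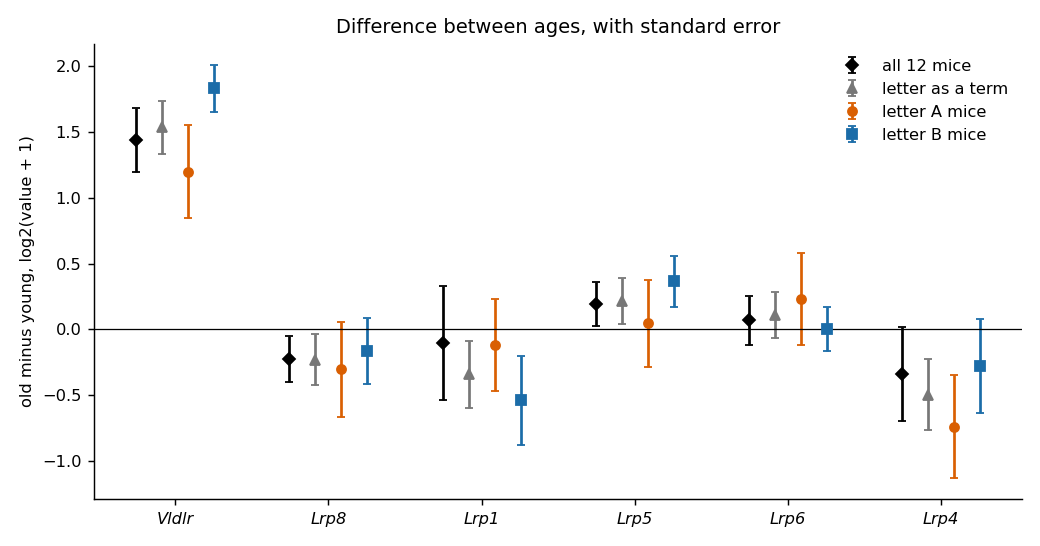
Old minus young difference on the log2(value + 1) scale of each member, with its standard error, over all 12 mice (black diamonds), with the letter as a term (grey triangles) and in letter A (orange circles) or letter B mice (blue squares) alone. *Vldlr* lies between 1.20 and 1.83 in all 4 estimates, and the other members lie between −0.74 and 0.36.

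Markers of other cells were read beside the rise of *Vldlr*. The summed level of the progenitor markers *Cd34*, *Flt3* and *Cd48* was 167 to 293 in young and 98.0 to 139 in old mice, with no overlap. Of their proteins the gate selects against CD48 only, so cells with CD34 or FLT3 can lie inside it. The 4 endothelial markers, from a cell type known to express *Vldlr*, summed to 196 to 242 in young and 183 to 283 in old mice, and the 3 of 4 megakaryocyte markers with a row to 112 to 217 and 75.0 to 186. The 4 myeloid markers summed to 175 to 397 in young and 138 to 1623 in old mice, highest in old mouse 6, and the 4 erythroid markers to 40.4 to 90.5 and 20.7 to 249. The 4 lymphoid markers summed to 22.4 to 92.3 and 18.5 to 138, the 2 of 3 macrophage markers with a row to 2.75 to 26.9 and 4.52 to 22.9, and the 4 stromal markers to 56.3 to 194 and 35.8 to 245. The only marker at 0 in any mouse was *Cd3e*, in old mouse 3. Of the 35 markers with a row, 29 passed the filter on low values and 0 of these were called between ages in limma, with 4 at an unadjusted p under 0.05 (*Flt3*, *Cd34*, *Pf4* and *Emcn*). Both tests of edgeR and DESeq2 called 1 of them, *Cd34*. *Cd48* and both macrophage markers were among those not tested. The part of these markers in the difference of *Vldlr* was not tested.

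The genes whose level followed *Vldlr* most closely over the 12 mice, after each letter's mean was removed, were *Gda* (Pearson r = 0.980), *Clca3a1* (0.971), *Itgb3* (0.966), *Alcam* (0.963) and *Fhdc1* (0.962) of 12353 other genes. *Gda* encodes guanine deaminase, *Itgb3* the integrin beta 3 chain and *Alcam* an adhesion protein. Each also differed between the ages in the mean, as *Gda* with a young mean of 169 ± 27.0 and an old mean of 478 ± 142 and *Itgb3* with 107 ± 9.73 and 223 ± 70.8, so the likeness contains the age step. These mice share their libraries between genes, and the correlations are a description. Among members, *Lrp5* was nearest to *Vldlr* with r = 0.613 and *Lrp8* farthest with r = −0.519. The highest correlation between any pair of members was that of *Lrp4* and *Lrp1*, 0.707.

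The letters allow a comparison that the choice of members did not use, although for *Vldlr* the fit holds the age difference by which the list was chosen. With age as a term in the fit, *Lrp1* and *Lrp4* were lower, and *Vldlr* higher, in the letter B mice than in the letter A mice. *Lrp1* had 113 ± 33.1 normalized counts (SD, n = 6) in letter A and 46.7 ± 21.6 (SD, n = 6) in letter B mice. In letter A the values were 95.5 and 139 in the young mice and 85.0, 167, 88.8 and 101 in the old mice, and in letter B they were 48.7, 34.5 and 80.8 in the young and 37.7, 59.7 and 19.1 in the old mice. Its lowest letter A value, 85.0, was above its highest letter B value, 80.8, so the letters did not overlap. The log2 difference (B minus A) was −1.40 ± 0.25 (SE; limma, adjusted p = 0.000329), and *Lrp1* passed with each mouse left out. *Lrp4* had 58.3 ± 21.6 (SD, n = 6) in letter A and 31.9 ± 12.5 (SD, n = 6) in letter B mice, with a log2 difference of −0.92 ± 0.27 (SE; limma, adjusted p = 0.00997).

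*Vldlr* had 146 ± 70.0 (SD, n = 6) in letter A and 195 ± 125 (SD, n = 6) in letter B mice, and a log2 difference of 0.54 ± 0.20 (SE; limma, adjusted p = 0.033). This call was lost without young mouse 3 (adjusted p = 0.0514) and without old mice 2 (0.0812), 3 (0.109), 4 (0.0553) or 5 (0.0581), each left out in limma. It was also lost without the age term (adjusted p = 0.525 in limma). *Lrp5* (0.11 ± 0.17), *Lrp6* (0.24 ± 0.17) and *Lrp8* (−0.03 ± 0.19) did not pass, with adjusted p of 0.637, 0.280 and 0.930 in limma.

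Thus 3 of the 6 members were called between letters, 1 higher and 2 lower in letter B, beside 4462 of the 12354 genes tested (36.1%), of which 1301 were higher and 3161 lower. A member without overlap between the letters was 1 of 6, against 1297 of all genes tested (10.5%). Under the median ratio scaling, which sets libraries equal at the median gene, the split over all genes became 3360 higher and 2541 lower, and the median difference of all genes moved from −0.09 to 0.21. Under this scaling *Lrp6* was called too, at 0.54. The olfactory and vomeronasal receptor genes were 2.93-fold higher in the letter A mice on average, beside 2.41-fold for *Lrp1* and 1.82-fold for *Lrp4*. When their level per kb was subtracted from every gene, an alternative chosen after the data were seen, *Lrp1* was at −1.07 (limma, adjusted p = 0.106) and *Lrp4* at 0.41 (limma, adjusted p = 0.714). Negative results were set to 0 there, as for *Lrp4* in old mouse 1, a letter A mouse. Depth also differed between the letters, as given above, and letter and depth cannot be told apart. The part of the receptor gene signal in the difference of *Lrp1* and *Lrp4* was not tested further.

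**Figure D4:**
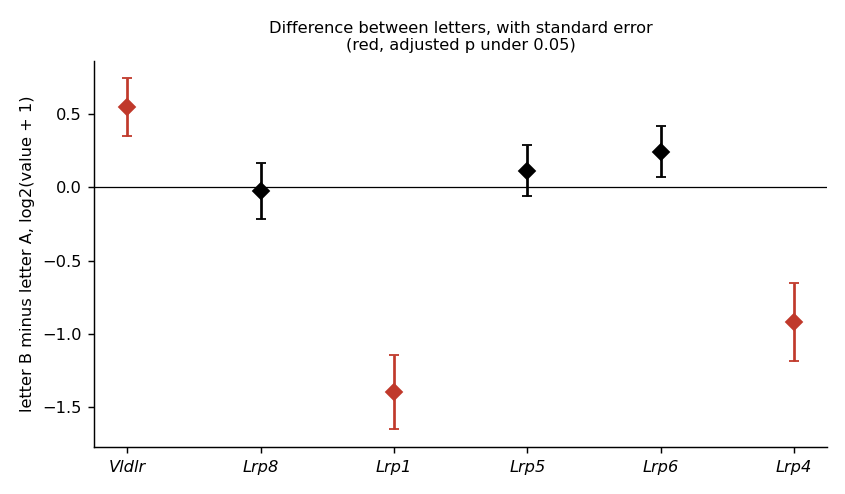
Letter B minus letter A difference on the log2(value + 1) scale of each member, with its standard error, from the fit with age as a term (6 mice per letter). Members with an adjusted p under 0.05 are in red: *Lrp1* at −1.40, *Lrp4* at −0.92 and *Vldlr* at 0.54.

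The genes around the receptors were then read as 7 lists holding 127 genes, of which 109 had a row and 99 passed the filter on low values. Of these 99 genes 0 were called between ages by limma, against 0.105% of all genes, and 6 were at an unadjusted p under 0.05. DESeq2 and both tests of edgeR, run on the recovered reads, also called 0 of them. The smallest adjusted p in any list was 0.629 in limma, for *Cyp51*.

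The list of relatives had 8 tested genes of 11 listed, with a median log2 difference of 0.13, 5 positive and 3 negative. This direction was not stable, since the median was −0.02 with the letter as a term (5 of 8 negative) and −0.22 in the letter B mice alone (6 of 8 negative). It held *Sorl1*, a sorting receptor, with a young mean of 64.8 ± 11.02 and an old mean of 109 ± 64.2 and a log2 difference of 0.52 ± 0.35 (SE; limma, adjusted p = 0.9997). *Lrp2* with 0.19 ± 0.42 (SE) and *Lrp1b* with 0.59 ± 0.44 (SE) did not pass either. All 3 were lower in letter B mice, by a log2 difference of −1.08, −1.42 and −1.47 (limma, adjusted p = 0.00125, 0.000117 and 0.000171).

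Of the ligands, 12 of 18 were tested, with a median log2 difference of −0.03 and 6 in each direction. The letters ran opposite ways, with a median of 0.23 and 2 of 12 genes negative in the letter A mice alone, and −0.49 and 8 of 12 negative in the letter B mice alone. With the letter as a term the median was −0.26. Whether the letters differed was not tested for the list. The highest normalized counts were those of *Psap* (prosaposin), *Apoe* (apolipoprotein E, a ligand of *Vldlr*) and *Tfpi* (tissue factor pathway inhibitor). *Apoe* had a young mean of 265 ± 62.1 normalized counts and an old mean of 306 ± 100, a log2 difference of 0.16 ± 0.25 (SE). *Psap* was at 0.02 ± 0.24 (SE) and *Tfpi* at 0.14 ± 0.16 (SE), so none passed (limma, adjusted p = 0.9997 for each). *Reln*, which encodes reelin, was named after its values were seen. It had means of 57.2 ± 28.7 and 57.8 ± 37.9 in young and old mice, and was lower in letter B mice, at a log2 difference of −1.36 (limma, adjusted p = 0.000975). Its level per kb was at a median of 1.06 times that of the olfactory and vomeronasal receptor genes.

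Of the reelin pathway below *Vldlr* and *Lrp8*, 13 of 15 genes were tested, with a median of −0.13 against −0.02 over all genes. Of the 13 genes 11 were negative (84.6%, against 52.3% of all genes). In the letter A mice alone 11 of 13 were negative (median −0.16, all genes −0.03). In the letter B mice alone 7 of 13 were negative (median −0.07, all genes −0.04). *Pik3r1*, a regulatory subunit of PI3 kinase, was at 0.23 ± 0.29 (SE), the small GTPase gene *Rap1b* at −0.25 ± 0.27 (SE) and *Pafah1b1*, the dynein regulator LIS1, at −0.28 ± 0.25 (SE). The adaptor gene *Dab1*, named after its values were seen, had a young mean of 18.5 ± 5.80 and an old mean of 33.9 ± 21.8. Its log2 difference of 0.56 ± 0.47 (SE) did not pass (limma, adjusted p = 0.9997). *Dab1* was lower in letter B mice, at a log2 difference of −1.24 (limma, adjusted p = 0.0077). Its level per kb was at a median of 1.54 times that of the olfactory and vomeronasal receptor genes. Of the genes for folding, recycling and turnover of the receptors, 12 of 15 were tested (median −0.13, 9 negative), and the median was −0.04 in letter A and −0.0034 in letter B, with 6 of 12 negative in each. *Pdia3* and *Hsp90b1*, which encode chaperones of the endoplasmic reticulum, were at −0.11 ± 0.24 and −0.18 ± 0.23 (SE), and the protease gene *Adam10* at 0.10 ± 0.29 (SE).

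Of the Wnt genes around *Lrp5* and *Lrp6*, 29 of 38 were tested, 17 positive and 12 negative, with a median of 0.13, which turned to −0.07 in the letter A mice alone (18 of 29 negative). The highest normalized counts were those of *Csnk1a1* (a casein kinase of the destruction complex, −0.18 ± 0.31 SE), *Ctnnb1* (beta-catenin, −0.21 ± 0.25 SE) and *Apc* (the scaffold of that complex, −0.09 ± 0.24 SE), none of which passed. Of the partners of *Lrp4*, 4 of 5 were tested and all 4 were negative (median −0.25), or 3 of 4 in the letter A mice alone. *Agrn* (agrin) had a young mean of 50.8 ± 16.7 and an old mean of 44.3 ± 19.5. *Musk* and *Dok7*, its receptor kinase and adaptor at the muscle synapse, stayed at or below a mean of 16.4 normalized counts in both ages and were at medians of 1.75 and 1.37 times the level of the sensory receptor genes.

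Of the genes of sterol synthesis, uptake and efflux, 22 of 27 were tested, with a median of −0.13 against −0.02 over all genes. Of these 16 were negative and 6 positive (72.7% negative, against 52.3% of all genes). The genes with the highest normalized counts, the exporters *Abcg1* (−0.29 ± 0.20 SE) and *Abca1* (−0.11 ± 0.20 SE) and the sterol sensor partner *Scap* (−0.03 ± 0.29 SE), did not pass. The list held 4 of the 6 listed genes with an unadjusted p under 0.05. Named after their values were seen, *Cyp51* and *Msmo1*, enzymes that demethylate sterol intermediates, had young means of 79.5 ± 14.8 and 90.5 ± 20.9 and old means of 50.1 ± 11.9 and 56.8 ± 14.5. Their log2 differences were −0.67 ± 0.21 and −0.67 ± 0.22 (SE; limma, adjusted p = 0.629 and 0.709), and their ages overlapped. *Insig1*, the feedback regulator of sterol synthesis, also named after its values were seen, was at −0.78 ± 0.31 (SE; limma, adjusted p = 0.9997). It was higher in letter B mice, at a log2 difference of 0.77 (limma, adjusted p = 0.0156). The median of this list was −0.10 with the letter as a term, against −0.05 over all genes. It was −0.15 in the letter A mice alone (all genes −0.03) and −0.21 in the letter B mice alone (all genes −0.04). Under the median ratio scaling it was −0.17 (all genes −0.06). In each of these settings 0 genes of the list were called.

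**Figure D5:**
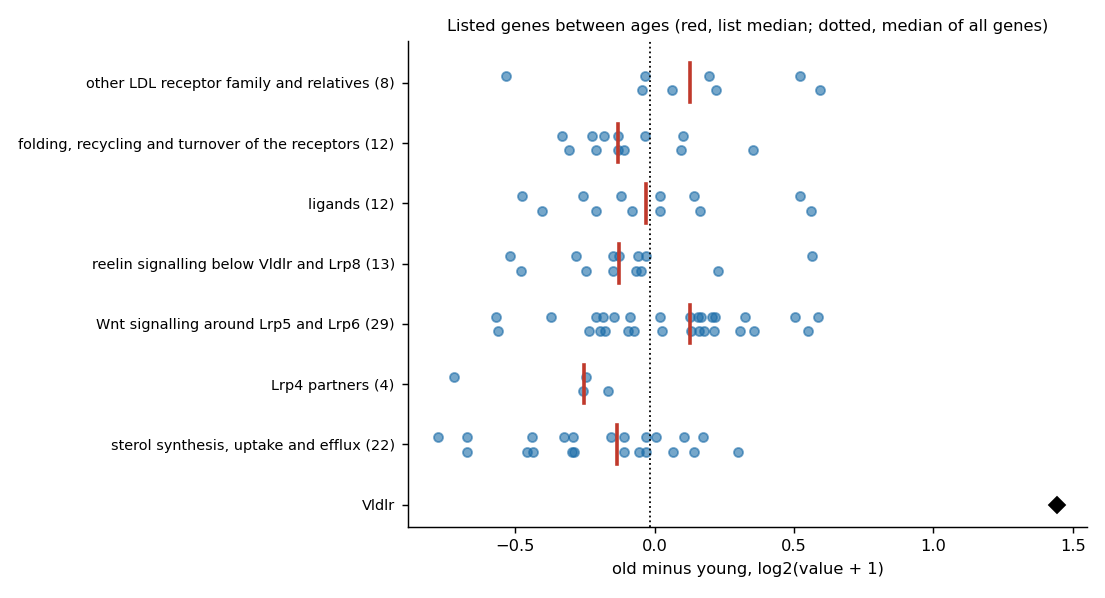
Old minus young difference on the log2(value + 1) scale of the 99 listed genes tested (blue points, 1 per gene and list), with each list's median in red, the median of all genes dotted, and *Vldlr* as a black diamond. The listed genes lie between −0.78 and 0.59, and *Vldlr* lies at 1.44.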

How the data were processed

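RNA of LSK-SLAM cells from 12 mice was ribosome-depleted and made into libraries with the TotalScript kit. Per the labels, the authors' processing used FastQC 0.11.8, STAR 2.5.4b, edgeR 3.24.3 and the genome build mm10. The deposited values are normalized read counts, a signal per gene proportional to its reads over a scaled library size, and the 24 labelled samples (2 per mouse) were given as 1 column per mouse. A further file of the authors' fold changes and p-values was not used. Within a mouse, 100% of the values could be turned back into whole reads by division with 1 constant (tolerance 0.02). They sum to 0.861 to 5.12 M per mouse, which limits the precision for genes with few reads.

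Genes with a mean of at least 10 were kept (12354 of 18762, all 6 members included) and log2(value + 1) was fitted with limma 3.58.1 in R 4.3.3, with a variance trend, for age alone, for letter with age as a term, and for their interaction. Calls had a Benjamini-Hochberg adjusted p under 0.05. The p-values set a difference against the variance between mice that the fit leaves, moderated across genes. In the fit for age alone this variance includes the difference between letters. A log2 difference on this scale understates the change of low genes. Alternatives were other pseudocounts, minima and scalings, no trend, the letter as a term, each letter alone, the replicate number as a block, each mouse left out, and edgeR 4.0.16 and DESeq2 1.42.0 on the recovered reads. A subtraction of the olfactory and vomeronasal receptor gene level, and a fit of replicates 1 to 5 without the block, were added after the data were seen. Values below 0 after the subtraction were set to 0. Gene lengths and positions came from GENCODE vM21, which held 18745 of the 18762 gene identifiers, and promoter windows from RefSeq (4 of the 8 listed members had a window). The fits were tested on simulated data.

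The members, lists and tests were chosen with earlier results of these data known. The genes named were the members, in each list every gene called between ages and the 3 tested genes with the highest mean, and the 5 genes with the highest Pearson r to *Vldlr*. Some listed genes and markers are not reported here. Other names were chosen after their values were seen, as stated beside them.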

Additional observations from a re-analysis of the deposited data

Results flagged for a closer look

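Among the members and the named listed genes, 74 groups of 5 or 7 mice were searched for a mouse far from the others, and 3 were found, where chance gives about 1 in 20 groups (3.7 here). No member was among them. The remaining 6 old mice held 285 to 387 normalized counts of *Pdia3*, and old mouse 5 held 140. Of *Hsp90b1*, old mouse 5 held 119 and its group mates 223 to 287. For *Psap*, young mouse 2 was lowest at 227, with the 4 remaining young mice at 365 to 415.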

How the results depend on the processing

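The difference of *Vldlr* between ages was positive in all 28 fits, from 1.20 to 1.83, which describes the gene the list was chosen by and is no test. It was not among the called genes without the variance trend, under median ratio scaling, after background subtraction, in letter A alone or in replicates 1 to 5 without the block, nor when young mouse 1, 3, 4 or 5 or old mouse 1, 2 or 3 was left out. Subtraction moved *Lrp8* to −1.59 and *Lrp4* to −1.71, with values set to 0 for *Lrp8* in 2 old mice and for *Lrp4* in 1 old mouse. *Lrp1* was at −0.60 after subtraction. Leaving out each mouse gave *Vldlr* 1.33 to 1.62, *Lrp8* −0.28 to −0.16, *Lrp1* −0.36 to 0.19, *Lrp5* 0.14 to 0.25, *Lrp6* −0.06 to 0.14 and *Lrp4* −0.52 to −0.10.

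The 13 genes called between ages became 2 without the trend, 5 under median ratio scaling, 0 after subtraction (487 at an unadjusted p under 0.05 in limma), 41 in the likelihood ratio test of edgeR, 57 in DESeq2, 37 with the letter as a term, 1 in letter A alone, 100 in letter B alone, and 3 to 32 with a mouse left out. They fell to 3 without young mouse 3 or 4 or old mouse 1, 2 or 3, to 4 without young mouse 5, to 6 without young mouse 1 and to 7 without old mouse 6, and rose to 32 without old mouse 5. Listed genes called stayed at 0 in all 27 alternatives.

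Replicate numbers were not shown to pair these animals. Deviations of same-numbered mice from their age means correlated at 0.180, −0.559, 0.402, 0.615 and 0.0437, and 2 of the 5 numbers matched best with their own. The mice numbered 2 and those numbered 5 differ in letter, which was not removed, so this check cannot decide on pairing. With the replicate block 19 genes were called, against 8 in the same mice without the block, and *Vldlr* was at 1.49.

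Between letters, the 4462 genes called became 943 with a minimum mean of 50 (830 higher, 113 lower), 453 after subtraction (381 higher, 72 lower) and 2943 to 5003 with a mouse left out, the lowest without young mouse 2. Members called fell from 3 to 1 with a minimum mean of 50, where 4 members were tested and *Lrp4* and *Lrp8* were filtered out, and to 0 after subtraction, and were 2 to 3 with a mouse left out. *Vldlr* was at 0.54 without the trend (adjusted p = 0.0855 in limma) and with a minimum mean of 50 (0.055), 0.95 after subtraction (0.0818), 0.29 without the age term, and 0.38 to 0.62 with a mouse left out. *Lrp6* rose to 0.54 under median ratio scaling (adjusted p = 0.0425 in limma). After subtraction *Lrp1* was at −1.07 and *Lrp4* turned to 0.41. With a mouse left out, *Lrp1* was at −1.57 to −1.15 and *Lrp4* at −1.18 to −0.80. The 2 genes called for the interaction became 0 without the trend and 0 to 6 with a mouse left out. Causes were not tested.

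Of the 5 genes most like *Vldlr*, 2 were shared with the top 5 by Spearman rho and 3 without centring on the letter. Per kb of the longest transcript *Lrp8* was at 7.46 and *Lrp6* at 25.4 over all mice. Old mouse 7, with 0.861 M reads, has the least precise values.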
